A study of Homo sapiens with 62 samples.

Results

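The acute transcriptional response to loss of KLF5 was measured in T3M-4, a human pancreatic ductal adenocarcinoma line used as a model of the basal-like subtype. The samples were chosen by their labels: the 4 T3M-4 libraries treated for 4 h with dTAGv-1 (dTAG) and the 4 treated for 4 h with its inactive analogue dTAGv-1-NEG (NEG), 8 of the 62 samples of the series. Both groups share 1 genotype, FKBP12-F36V-FLAG-KLF5 with an sgRNA against the endogenous KLF5 gene. The tagged KLF5 came from a lentiviral cDNA and the endogenous gene was disrupted by Cas9 in a selected pool of cells, so the tagged protein was the KLF5 of both groups and the NEG cells are no unmodified parental line. dTAGv-1 recruits a ubiquitin ligase to proteins that carry the FKBP12-F36V tag, and the analogue does not. For comparison, 10 libraries of each treatment at 4 h from AsPC-1 cells and 4 libraries each of 4 h of CB-6644 and of DMSO from T3M-4 cells were used, all with the same genotype label.

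Cells took up 4-thiouridine (4sU) for the last 2 h before harvest. After alkylation of the RNA, reads from transcripts made in that window can carry T>C conversions, and such reads are called T>C reads or new RNA here. Each group held libraries 1.1, 1.2, 2.1 and 2.2, in which the first number is the experiment and also the batch of the labels. The study describes 2 biological replicates for this line, so libraries of 1 experiment may be technical repeats, and p-values measure the spread between libraries within the 2 experiments. Per library, 13562612 to 27982537 T>C reads and 111132257 to 209650478 reads in all were counted over 3′UTRs. Levels are given as CPM, counts per 1000000 reads of the same kind after TMM scaling.

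KLF5 is a zinc-finger transcription factor of the Krüppel-like family, which binds CACCC and GC-rich boxes. It is known for its roles in the basal layer of stratified epithelia and in gut epithelium, and its gene is highly expressed in many carcinomas. Basal-like pancreatic tumours express keratins, serpins and adhesion genes of squamous epithelium, while classical tumours express endodermal factors such as GATA6 and mucin and trefoil genes.

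The libraries carried the labelled cell type. All 7 epithelial and all 7 basal-like markers were above 1 CPM of all reads in all 8 libraries, against 3 of 8 classical markers (FOXA2, AGR2 and GATA6). Of the fibroblast markers 1 of 7 passed that level (COL1A1), and 0 of 5 endothelial, 0 of 5 leukocyte and 0 of 5 acinar and endocrine markers did. PRSS1 and CELA3A, which mark acinar cells, were at 0 in every library. The summed fibroblast markers ran from 8.26 to 9.78 CPM in NEG and from 5.53 to 9.06 after dTAG. T>C reads made up 13.03%, 13.3%, 12.2% and 12.2% of all reads in NEG libraries 1.1, 1.2, 2.1 and 2.2 and 12.6%, 14.3%, 12.6% and 12.4% after dTAG. The means of 12.98% ± 0.86 (SD, n = 4) after dTAG and 12.68% ± 0.54 (n = 4) in NEG differed by 0.302 percentage points (exact two-sided permutation p 0.686, smallest possible 0.0286). The difference was 0.304 and 0.300 points in experiments 1 and 2. No spike-in was used, so all fold changes are relative to the other genes of a library, and in bulk RNA fewer cells that make a transcript and less of it per cell cannot be told apart.

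KLF5 itself was higher in new RNA after dTAG. The gene (chr13:73054976-73077541, plus strand, GRCh38) had 634, 516, 584 and 562 CPM of T>C reads in NEG libraries 1.1, 1.2, 2.1 and 2.2. After dTAG it had 1073, 1019, 996 and 1194 CPM, so that every dTAG library lay above every NEG library. On the log2 scale the increase was 0.90 (SE 0.12, edgeR adjusted p 0.00285). In all reads it rose by 0.86 on the log2 scale (edgeR adjusted p 0.00633) and in reads without T>C by 0.78 (edgeR adjusted p 0.0275). The counted reads lie in the annotated 3′UTR and measure transcript of this locus, so they do not measure the protein and are no check of its degradation.

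Across the transcriptome, new RNA fell for many more genes than it rose. Of 13424 genes tested in T>C reads, 296 were lower (2.21%) and 58 higher (0.432%) after dTAG, 2.64% in all, at an edgeR adjusted p under 0.05 with the experiment as a block. The median log2 fold change was −1.23 among the lower and 0.94 among the higher genes, against 0.006 over all genes tested, of which 49.3% were below 0. Lower genes changed by more than 2-fold in 212 cases and by more than 4-fold in 44, and higher genes in 26 and 1. All of these genes had the same sign in both experiments. For 47 lower and 5 higher genes every deposited count was a multiple of 1 number above 1 (2 for FOXA2 and MUC16, 3 for JUP and HR, 4 for A4GALT, 9 for PLEC and 13 for MYD88), so their reads entered the table more than once, and 22 lower and 6 higher genes overlap another tested gene on the same strand. The NEG and dTAG libraries did not overlap for 235 of the 296 lower genes (79.4%) and 40 of the 58 higher genes (69.0%), against 5.74% of all genes tested. Scaled by all reads in place of T>C reads, the split was 97 higher and 239 lower and the median of all genes moved to 0.114. Without the block, 12 of the higher and 100 of the lower genes were called, and on counts summed per experiment with the block 32 and 228 were. In all 8 fits that left out 1 library, 18 and 146 were called. The effect differed between the experiments for 0 of the 13424 genes by edgeR (595 at an unadjusted p under 0.05), and for 17 by DESeq2.

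**Figure D1:**
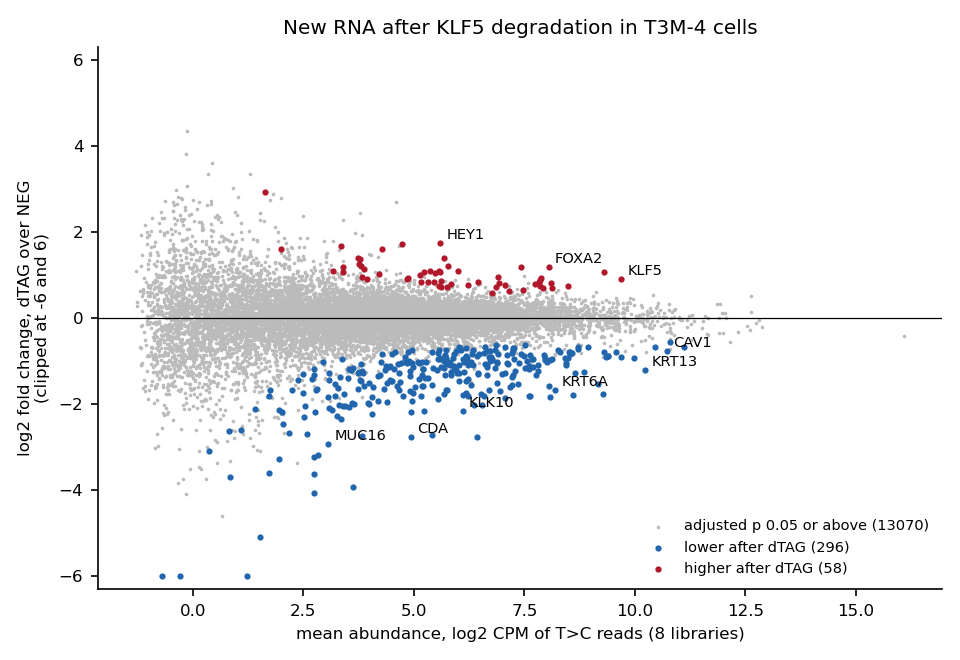
Log2 fold change of T>C reads after dTAG against the mean abundance of each gene (log2 CPM over 8 libraries), for 13424 genes. Points are genes, blue where lower (296) and red where higher (58) at an edgeR adjusted p under 0.05; the called genes lie mostly below the line at 0, over the whole range of abundance above the lowest.

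The lower genes with the smallest p-values came from several functional classes. KLK10, a secreted kallikrein-related peptidase (chr19:51012739-51020175, minus strand), had 81.7, 81.0, 149 and 139 CPM in NEG libraries 1.1, 1.2, 2.1 and 2.2. After dTAG it had 17.3, 18.7, 28.3 and 36.6 CPM, and the groups did not overlap although the level in experiment 2 was the higher in both. The change in log2 units was −2.16 (SE 0.14, edgeR adjusted p 8.22e-05). C1orf116 (chr1:207018522-207032756, minus strand) had 324, 349, 503 and 501 CPM in NEG and 103, 85.0, 142 and 142 after dTAG, a change of −1.83 (SE 0.12, edgeR adjusted p 8.22e-05). CDA, cytidine deaminase of pyrimidine salvage (chr1:20589086-20618903, plus strand), fell from 45.4, 33.2, 66.2 and 66.1 CPM to 4.81, 6.26, 12.2 and 8.20. The change of CDA was −2.76 (SE 0.20, edgeR adjusted p 0.00013), with no overlap in either experiment.

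A channel gene and cytoskeletal genes followed. LRRC8A, an essential subunit of the volume-regulated anion channel, went from 507, 421, 719 and 788 CPM to 152, 164, 193 and 177 (−1.79, SE 0.14, edgeR adjusted p 0.000231). EPB41L1, a band 4.1 protein of the membrane skeleton, went from 239, 265, 124 and 129 CPM to 88.1, 67.6, 35.6 and 41.2 (−1.71, SE 0.14, edgeR adjusted p 0.000231). For both genes every NEG library lay above every dTAG library, and EPB41L1 was higher in experiment 1 in both groups. RHOF, a small GTPase that promotes filopodia, fell from 89.9, 103, 116 and 122 CPM to 33.0, 30.4, 32.8 and 27.6 (−1.79, SE 0.15, edgeR adjusted p 0.000231). Others among the 20 smallest were FAM83A (−1.80), PROSER2 (−1.56) and RTEL1-TNFRSF6B, a read-through record whose reads cannot be told apart from TNFRSF6B (−1.57). The smallest p of all belonged to RNU6-1175P (chr11:70075363-70075469, plus strand), a U6 pseudogene that lies inside the ANO1 record on the same strand, so its reads may be those of ANO1. It had 9.90, 13.4, 34.03 and 35.2 CPM in NEG and 0.934, 0.516, 2.65 and 2.19 after dTAG.

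Among the higher genes, MMP1, the interstitial collagenase (chr11:102789401-102798160, minus strand), had the smallest p. Its NEG libraries held 12.9, 11.9, 11.6 and 12.4 CPM and its dTAG libraries 37.9, 41.7, 40.4 and 41.3, a narrow spread in both groups (1.72, SE 0.15, edgeR adjusted p 0.000342). FOXA2, a forkhead factor of endoderm (chr20:22580998-22585455, minus strand), had 148, 148, 177 and 176 CPM in NEG. It had 379, 371, 346 and 372 CPM after dTAG (1.18, SE 0.12, edgeR adjusted p 0.000578). PAPPA, a metalloprotease that cleaves IGF-binding proteins, went from 7.69, 10.8, 8.80 and 10.997 CPM to 27.8, 25.7, 33.0 and 30.5 (1.61, SE 0.19, edgeR adjusted p 0.000989). Others among the 10 smallest, besides KLF5, were HEY1 (1.75), ANTXR2, an anthrax toxin receptor that binds collagen (1.39), the matrix glycoprotein gene THBS1 (0.94), SOX9 (1.19) and BASP1 (0.89). For THBS1 and SOX9 the groups overlapped over both experiments, since experiment 2 was higher in NEG and in dTAG, and did not overlap within an experiment.

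**Figure D2:**
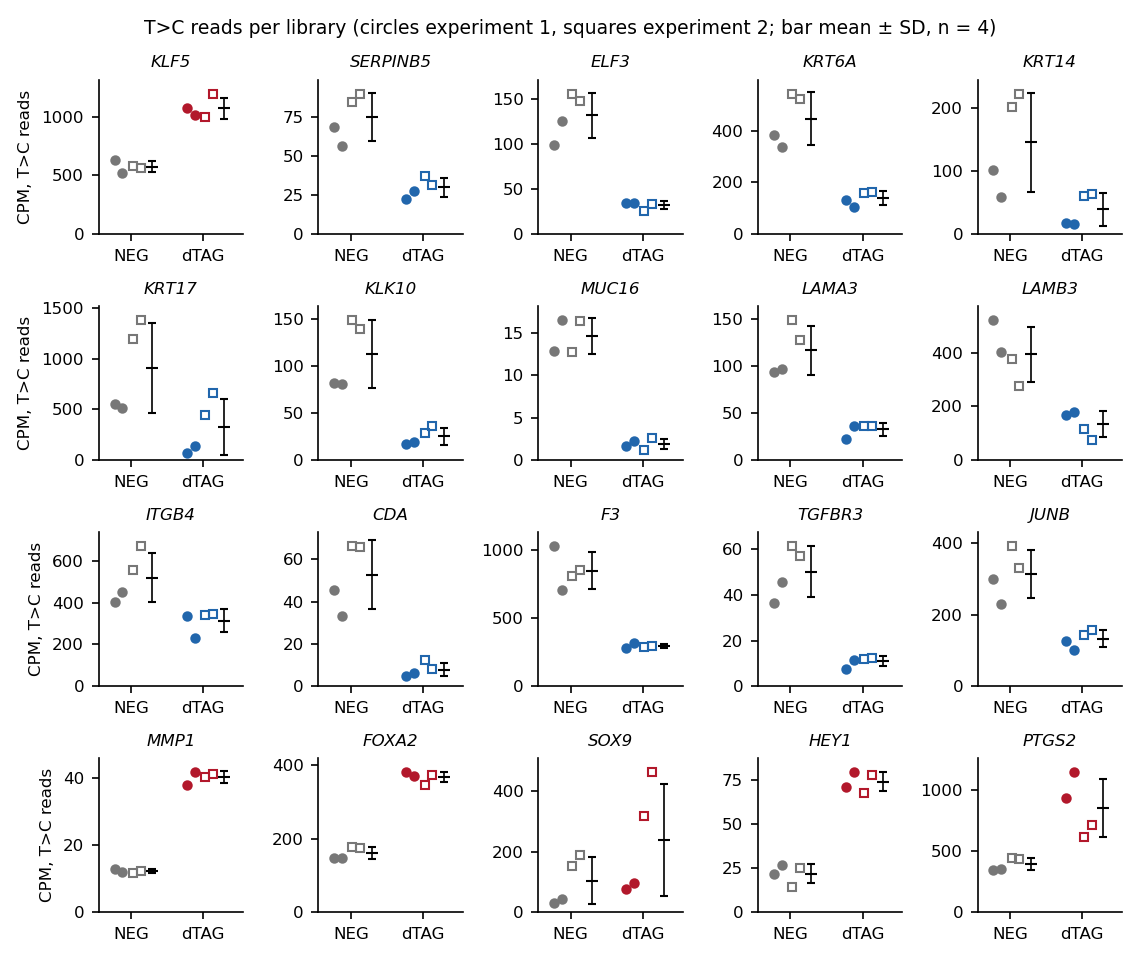
T>C reads (CPM) of 20 genes in each of the 8 libraries, with circles for experiment 1, squares for experiment 2 and bars for mean ± SD (n = 4). KLF5, MMP1, FOXA2, SOX9, HEY1 and PTGS2 were higher after dTAG and the other 14 lower; for KRT14, KRT17 and SOX9 the groups overlap, and experiment 2 is higher in both groups.

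Promoters of the called genes were read for the boxes that KLF and AP-1 factors are known to bind. The windows run from 250 bases before to 50 after each RefSeq start (GRCh38.p14), and 10333 of the 13424 tested genes, 221 of the 296 lower and 41 of the 58 higher had one. The CACCC box CCNCACCC, on either strand, was in 68 of the lower promoters (30.8%) and 5 of the higher (12.2%), against 20.02% of all. The GC box CCCCGCCC was in 107 (48.4%) and 12 (29.3%), against 38.2%, and the AP-1 element TGANTCA in 23 (10.4%) and 2 (4.88%), against 4.87%. Matches of the CACCC and GC boxes can overlap each other. GC boxes lay before the starts of RHOF, TGFBR3, F3, NRP2, AJUBA, A4GALT, SERPINB1 and SERPINB5, those of SERPINB5 at 70 and 65 bases. Among the higher genes of smallest p, ANTXR2 and BASP1 had a CACCC box and THBS1 a GC box. These matches, the GC boxes above and a further AP-1 match each of F3 and LAMA3 are not printed. Not every gene of smallest p was read for single windows. The windows below show CACCC and AP-1 matches among the lower genes of smallest p and SERPINB5. The motif is in capitals, 5′ to 3′ on the gene's strand. N stands for any base, and the middle base of the AP-1 match is A in SERPINB5 and G in F3 and LAMA3.
RHOF CACCC box (chr12:121793797-121793826, minus strand): gagctgaatacCCACACCCagggctgagac
ELF3 CACCC box (chr1:202010355-202010384, plus strand): ccaaccccagaGGGTGCGGgatgacagact
F3 CACCC box (chr1:94541898-94541927, minus strand): aggcggggcagGGGTGTGGactcgccgggg
F3 AP-1 element (chr1:94541951-94541980, minus strand): aatcactggggTGAGTCAtcccttgcaggg
A4GALT CACCC box (chr22:42721018-42721047, minus strand): ctggggactgtCCGCACCCgccccggggag
LAMA3 CACCC box (chr18:23872787-23872816, plus strand): gggcgtctgcaGGGTGAGGtgggtggaagg
LAMA3 AP-1 element (chr18:23872940-23872969, plus strand): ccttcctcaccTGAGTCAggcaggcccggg
SERPINB5 AP-1 element (chr18:63476801-63476830, plus strand): taacttcagccTGAATCAtttctttcaatt
A match describes the letters of the window and is no measured binding site.

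Genes of the basement membrane anchor fell together. The gene lists were chosen with earlier results of these data known, so their counts describe the calls and test no enrichment. Of 9 hemidesmosome and laminin-332 genes tested, 6 were lower and 0 higher, with a median log2 fold change of −0.89 against 0.006 over all genes. Chains of laminin-332, the ligand that hemidesmosomes hold, were among them. LAMA3 (chr18:23689453-23956222, plus strand) fell from 93.0, 96.9, 148 and 127 CPM in NEG libraries 1.1, 1.2, 2.1 and 2.2 to 22.3, 36.6, 35.8 and 36.2 (−1.81, SE 0.18, edgeR adjusted p 0.00044). LAMB3 (chr1:209614870-209652425, minus strand) fell from 521, 402, 378 and 275 CPM to 169, 178, 117 and 76.6 (−1.58, SE 0.18, edgeR adjusted p 0.000989). Neither overlapped between the groups. The receptor integrin α6β4 was lower in both chains, ITGA6 by −0.95 (SE 0.13) and ITGB4 by −0.71 (SE 0.15), and so was the plakin PLEC, which links it to keratin (−0.89, SE 0.17). COL17A1 (−0.32), DST (0.18) and CD151 (−0.18) did not pass the test. Besides this list, LAMA5 (−1.31) and the nidogen gene NID2 (−2.10) of the basement membrane and LAD1 (−0.94), which codes for the anchoring-filament protein ladinin, were lower. Of these, the calls of ITGB4 and PLEC were lost in at least 1 of the 8 fits that left out 1 library.

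Keratins of stratified epithelium were lower in 6 of 13 tested cases and higher in 0, with a median of −1.05. KRT6A (chr12:52487176-52493257, minus strand) had 384, 339, 542 and 524 CPM in NEG and 130, 106, 160 and 161 after dTAG (−1.67, SE 0.13, edgeR adjusted p 0.000141). KRT14, the basal-layer type I keratin, had 101, 58.1, 201 and 222 CPM in NEG and 16.9, 15.8, 60.6 and 62.8 after dTAG (−2.03, SE 0.20, edgeR adjusted p 0.00044). KRT13, of mucosal epithelia, had 1457, 1168, 2070 and 1979 CPM in NEG and 587, 470, 921 and 943 after dTAG (−1.22, SE 0.13, edgeR adjusted p 0.000656). The KRT14 groups overlapped across the experiments, since experiment 2 was higher in both, and not within one. KRT17 fell by 2.33 on the log2 scale in experiment 1 and by 1.21 in experiment 2 (−1.78 in the joint fit, SE 0.29, edgeR adjusted p 0.00822). KRT4 (−3.19, SE 0.56) and KRT16 (−2.67, SE 0.46) were the other two lower keratins, and KRT5 (−1.05, SE 0.34) and KRT15 (−0.83, SE 0.26) did not pass. Of the 4 simple keratins tested, the pair KRT8 (−1.54, SE 0.22) and KRT18 (−0.999, SE 0.22) was lower, while KRT7 (−0.72) and KRT19 (−0.83) did not pass. Close paralogs make the assignment of keratin reads uncertain. Among the keratins, the calls of KRT4 and KRT18 were lost in at least 1 of the 8 fits that left out 1 library.

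Genes of terminal squamous differentiation moved in the same direction. Of 16 cornified envelope genes tested 5 were lower and 0 higher, with 15 below 0 and a median of −1.46. PPL, which codes for periplakin, fell from 23.3, 21.0, 10.7 and 12.4 CPM to 5.34, 5.02, 3.57 and 2.29 (−2.04, SE 0.22, edgeR adjusted p 0.000742). SPRR1B, a small proline-rich envelope protein gene, fell from 23.3, 14.5, 44.1 and 52.7 CPM to 5.34, 5.43, 12.0 and 10.8 (−1.95, SE 0.20, edgeR adjusted p 0.000578). Neither overlapped between the groups. IVL (involucrin, −2.60), SPRR3 (−2.62) and SCEL (sciellin, −1.60) were the other calls, and TGM1 (−3.51, SE 0.97) and SPRR1A (−1.32, SE 0.34) did not pass. KLK10 and KLK11 were lower of 6 kallikreins tested, all 6 below 0. KLK11 fell from 68.5, 50.6, 71.7 and 100 CPM to 4.54, 9.52, 15.6 and 17.7 (−2.72, SE 0.27, edgeR adjusted p 0.000471). TRIM29 (−1.83), EMP1 (−1.05) and FLNC (−3.27) lay outside the lists. Among these genes, the calls of IVL and SPRR3 were lost in at least 1 of the 8 fits that left out 1 library. On counts summed per experiment IVL and SPRR3 were not called.

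SERPINB5, which codes for maspin, a serpin expressed in basal-like tumours, fell as 1 of 3 clade B serpins called of 9 tested. It had 68.8, 56.2, 84.9 and 89.9 CPM in NEG and 22.8, 27.7, 37.4 and 31.7 after dTAG, without overlap (−1.32, SE 0.15, edgeR adjusted p 0.000838). SERPINB1, an inhibitor of neutrophil proteases, had 199.8, 194, 163 and 167 CPM in NEG and 73.0, 83.2, 63.9 and 73.2 after dTAG (−1.30, SE 0.13, edgeR adjusted p 0.00044), and SERPINB9, an inhibitor of granzyme B, changed by −1.08 (SE 0.19). Of 13 S100 calcium-binding proteins all were below 0 and 4 were lower, S100A10 (−0.74), S100A11 (−0.96), S100A16 (−0.81) and S100P (−0.92), while S100A2 had −0.41 (SE 0.14). Among mucins 1 of 5 was called: MUC16, which carries the CA125 antigen, fell from 12.8, 16.5, 12.7 and 16.4 CPM to 1.69, 2.27, 1.16 and 2.58 (−2.92, SE 0.30, edgeR adjusted p 0.000578). Its highest dTAG library held less than the lowest NEG library by a wide margin. Secreted and surface markers of epithelial tumours were lower in 6 of 25 and higher in 0, namely CEACAM1 (−1.67), CEACAM6 (−1.46), LY6D (−1.60), the serine protease gene TMPRSS4 (−1.63) and the antiproteases SLPI (−1.42) and PI3 (−2.35). Folate receptor gene FOLR1 (−2.74), calcium-binding CALB1 (−1.82) and the microfibril gene MFAP5 (−2.77) were lower outside the lists. Within this group, the calls of SERPINB9, S100A10, S100A11, S100A16, S100P, CEACAM1, CEACAM6 and SLPI were lost in at least 1 of the 8 fits that left out 1 library. The fit on sums per experiment did not call S100P, CEACAM1 and SLPI.

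Junction genes were affected unevenly. Of 11 desmosome genes 2 were lower, DSP, which codes for desmoplakin (−0.97, SE 0.15), and JUP, for plakoglobin (−0.87, SE 0.13), with a median of −0.49; DSG3 (−1.06, SE 0.27) and DSG2 (−0.79, SE 0.21) did not pass. Of 18 adherens junction and mesenchymal genes 5 were lower, the epithelial cadherin CDH1 (−0.84, SE 0.18), its p120 partner CTNND1 (−0.68), the nectins NECTIN1 (−1.10) and NECTIN4 (−1.12), and CDH11, a cadherin of mesenchymal cells (−1.81, SE 0.26). CDH1 had 29.6, 25.7, 30.1 and 30.5 CPM in NEG and 16.02, 20.8, 13.98 and 14.3 after dTAG. The gap junction gene GJB5 (−1.25) was among 2 lower of 12 connexins and pannexins. None of 23 tight junction genes was called by edgeR, with a median of −0.002. Of these, the calls of CDH1, CTNND1 and GJB5 were lost in at least 1 of the 8 fits that left out 1 library. Summed per experiment, CDH1, CTNND1 and GJB5 were not called.

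Genes that link the membrane to actin were called outside the fixed lists, and are grouped here after their values were seen. PDLIM2 of the PDZ-LIM family had 327, 311, 274 and 303 CPM in NEG and 101, 128, 70.7 and 57.8 after dTAG (−1.82, SE 0.18, edgeR adjusted p 0.00044). The groups lay well apart. TLN2 (talin 2, −2.23), ACTN4 (α-actinin 4, −0.92), LMO7 (−1.18), PDLIM1 (−0.93), EPPK1 (epiplakin, −1.42) and SEPTIN9 (−0.79) were lower as well. Exchange factors and effectors of small GTPases included PLEKHG5 (−1.15), VAV2 (−1.14), ARHGEF2 (−1.32), TRIP10 (−1.15) and the kinase TNK2 (−1.10). From a list of small GTPases, formins and CDC42 effectors, RHOF, CDC42EP4 (−1.25) and the formin DAAM1 (−0.84) were lower of 33. CAV1, the main coat protein of caveolae, had 2145, 1860, 2147 and 2345 CPM in NEG and 952, 1068, 1472 and 1612 after dTAG (−0.77, SE 0.13, edgeR adjusted p 0.0104), and the caveolar genes CAVIN1 (−1.10) and EHD2 (−1.22) were also lower. Surface proteoglycans SDC1 (−1.02) and SDC4 (−0.96), podocalyxin PODXL (−1.17) and the microvillus genes EZR (ezrin, −0.97) and FSCN1 (fascin, −0.68), 2 of 8 microvillus genes, completed the group. In this group, the calls of CAVIN1, EHD2 and FSCN1 were lost in at least 1 of the 8 fits that left out 1 library. On counts summed per experiment FSCN1 was not called.

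Transcription factor genes changed in both directions. ELF3, an epithelial ETS factor (chr1:202007945-202017183, plus strand), had 98.9, 125, 155 and 147 CPM in NEG and 34.2, 34.8, 25.4 and 33.7 after dTAG. It was the only 1 of 20 ETS genes called (−2.02, SE 0.18, edgeR adjusted p 0.000372), and its relative EHF had −0.55 (SE 0.13). Of 18 KLF and SP genes, KLF5 was higher and KLF3, a repressor that binds the same CACCC boxes, and KLF2 were lower. KLF3 went from 39.0, 31.9, 30.7 and 44.4 CPM to 11.7, 16.1, 9.84 and 11.2 (−1.59, SE 0.21, edgeR adjusted p 0.00225), and KLF2 changed by −1.27 (SE 0.29). AP-1 genes were lower in 3 of 10 cases, JUNB (−1.24, SE 0.14), FOSL1 (−0.80, SE 0.12) and FOSL2 (−0.69, SE 0.12). JUNB had 301, 231, 392 and 331 CPM in NEG and 128, 101.8, 144 and 157 after dTAG. Of 17 squamous factors the homeobox genes BARX2 (−1.06) and PITX1 (−0.98) were lower and 0 higher. Of the 17, 13 were below 0, the largest log2 fold change was 1.42, and 1 was called higher on sums per experiment. SOX2, of the same list, was not called in T>C reads and was higher in all reads, as given below. TP63, the master factor of basal epithelium, had 66.4, 51.8, 42.4 and 40.4 CPM in NEG. After dTAG it had 24.8, 38.2, 29.5 and 23.6 CPM (−0.78, SE 0.19, edgeR adjusted p 0.0573). The TP63 groups did not overlap, but the test was not passed. Among these factors, the calls of KLF2, FOSL2 and PITX1 were lost in at least 1 of the 8 fits that left out 1 library. The fit on sums per experiment did not call KLF2 and FOSL2.

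Among 16 classical identity factors 2 were higher and 0 lower, with a median of 0.26. These were FOXA2, above, and SOX9, a factor of ductal cells, which had 32.6, 43.4, 152 and 188 CPM in NEG and 77.0, 95.9, 319 and 462 after dTAG (1.19, SE 0.17, edgeR adjusted p 0.00366). GATA6 had 0.11 (SE 0.19). Of 26 nuclear receptor genes, NR2F1 (1.099, SE 0.17) and NR2F2 (0.74, SE 0.15), the COUP-TF receptors, were higher, and PPARG (−1.12, SE 0.23) and the hairless corepressor HR (−1.43, SE 0.25) lower. RUNX2, a factor of bone and mesenchyme (0.90), and MEF2C (1.07) were higher outside the lists. MAFF (−1.27), SOX7 (−0.84), ZBTB7C (−3.23) and HAND1 (−1.67) were lower there. MXD1, a MAX partner of the MYC network, was the 1 called of 12 (−0.91), and MYC itself had −0.47 (SE 0.28). Of the transcription factor genes, the calls of NR2F2, PPARG, MEF2C, HAND1 and MXD1 were lost in at least 1 of the 8 fits that left out 1 library. Summed per experiment, RUNX2 was not called.

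Signalling genes gave small counts in each pathway. Of 18 EGF ligand and ERBB genes, the ligand genes TGFA (−0.94, SE 0.15) and HBEGF (−0.86, SE 0.16) were lower and ERRFI1, a feedback inhibitor of EGFR, higher (0.65, SE 0.13). HBEGF had 239, 184, 297 and 309 CPM in NEG and 144, 141, 133 and 141 after dTAG. Of 18 ERK feedback genes, DUSP1 (−1.23), DUSP5 (−1.09) and PHLDA3 (−0.78) were lower and SPRY1 higher (1.099). Of 18 immediate-early genes NR4A1 (−1.28) and ZFP36L1 (−0.78) were lower. In the Notch pathway 2 of 23 were higher and 0 lower. HEY1, a Notch target that codes for a repressor, had 21.8, 26.8, 14.5 and 25.3 CPM in NEG and 71.3, 79.5, 67.8 and 78.1 after dTAG (1.75, SE 0.20, edgeR adjusted p 0.00082). JAG1, a Notch ligand, had 36.8, 33.7, 27.6 and 27.8 CPM in NEG and 52.6, 52.6, 50.2 and 69.3 after dTAG (0.84, SE 0.17, edgeR adjusted p 0.0276). Neither overlapped, while HES1 had −0.63 (SE 0.18). Among these, the calls of HBEGF, ERRFI1, DUSP1, DUSP5, PHLDA3, SPRY1, NR4A1, ZFP36L1 and JAG1 were lost in at least 1 of the 8 fits that left out 1 library. On counts summed per experiment ERRFI1, DUSP1, PHLDA3 and JAG1 were not called.

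The TGF-β and BMP list had 3 higher and 6 lower of 50, with a median of 0.06. The 3 higher genes were the ligand gene TGFB2 (0.73), INHBA, which codes for an activin chain (0.83), and the BMP antagonist GREM1 (1.61). TGFBR3, the coreceptor betaglycan (chr1:91680343-91906335, minus strand), fell from 36.5, 45.7, 61.3 and 56.9 CPM to 7.65, 11.4, 12.2 and 12.6 (−2.18, SE 0.18, edgeR adjusted p 0.000231). The protease gene BMP1 (−1.50), SKIL (−0.67), ID1 (−0.56) and the activin-binding FSTL3 (−1.54) were also lower. TGFB2 reads cannot be told apart from those of TGFB2-OT1 (1.27), which overlaps it. Of 17 IL-6 family genes, the cytokine gene CLCF1 and SOCS1 (−1.43), an inhibitor of the pathway, were lower and the receptor gene LIFR (1.67) higher. CLCF1 fell from 31.3, 17.0, 29.0 and 21.8 CPM to 7.74, 6.29, 6.27 and 4.82 (−1.99, SE 0.25, edgeR adjusted p 0.00182). Of 38 NF-κB genes, IL1RN (−1.66), TNFAIP2 (−1.75) and BCL3 (−1.21) were lower and the chemokine gene CXCL1 higher (1.06, SE 0.17). IRF1 (−0.94) was the 1 of 35 interferon genes called. Of these, the calls of TGFB2, INHBA, GREM1, BMP1, SKIL, ID1, FSTL3, TGFB2-OT1, IL1RN, TNFAIP2 and IRF1 were lost in at least 1 of the 8 fits that left out 1 library. The fit on sums per experiment did not call TGFB2, GREM1, SKIL, ID1, FSTL3, IL1RN and IRF1.

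Other receptors and ligands included WNT7A (−2.01) and FZD10 (−1.83), lower of 29 WNT pathway genes, and EFNB1 (−1.80) and EPHA2 (−1.32), an ephrin and an Eph receptor, lower of 14. EPHA2 had 190, 92.0, 309.6 and 276 CPM in NEG and 66.0, 43.01, 111 and 131 after dTAG. NRP2, a neuropilin that binds semaphorins and VEGF, fell from 59.6, 57.0, 51.9 and 54.5 CPM to 19.0, 19.8, 14.8 and 11.2 (−1.81, SE 0.17, edgeR adjusted p 0.00043), and SEMA4B (−1.05) and SEMA6A (−1.40) were also lower, 3 of 25 in that list. PDGFA (−0.78) and FGFBP1 (−0.73), which releases FGF from matrix, were lower of 24, and UNC5B, a netrin receptor, was lower outside the lists (−1.59). Of 32 YAP-TEAD genes, AJUBA, a LIM protein that binds the LATS kinases (−1.50, SE 0.14), WWC1 (−0.69) and AMOTL2 (−0.91) were lower, and WWTR1, which codes for TAZ, higher (0.95, SE 0.17). AJUBA had 170, 129, 182 and 218 CPM in NEG and 50.1, 54.5, 72.5 and 69.6 after dTAG. F3, which codes for tissue factor, the trigger of coagulation (chr1:94529173-94541759, minus strand), fell from 1024, 701, 809 and 848 CPM to 281, 314, 287 and 295 (−1.52, SE 0.14, edgeR adjusted p 0.000417). PTGS2, which codes for cyclooxygenase 2, rose from 352, 359, 444 and 435 CPM to 936, 1148, 621 and 718 (1.08, SE 0.19, edgeR adjusted p 0.0126), by 1.57 on the log2 scale in experiment 1 and 0.62 in experiment 2. Both belong to a list of 25 purinergic, protease-activated and prostanoid genes. In this group, the calls of FZD10, EPHA2, SEMA6A, PDGFA, FGFBP1, WWC1, AMOTL2, WWTR1 and PTGS2 were lost in at least 1 of the 8 fits that left out 1 library. Summed per experiment, WWC1 was not called.

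Genes of proteases and their inhibitors changed in both directions. Of 28 metalloprotease and inhibitor genes, MMP1, MMP13, a collagenase, and PAPPA were higher, and TIMP2, an inhibitor of matrix metalloproteases, and ADAMTSL4 (−3.61) lower. MMP13 had 8.14, 9.45, 6.42 and 6.39 CPM in NEG and 17.7, 23.1, 21.3 and 16.3 after dTAG (1.38, SE 0.20, edgeR adjusted p 0.00469). TIMP2 had 62.6, 55.4, 77.5 and 97.2 CPM in NEG and 18.3, 22.8, 14.8 and 22.6 after dTAG (−1.87, SE 0.21, edgeR adjusted p 0.00092). The groups did not overlap for either gene. In the plasminogen list 3 of 9 were lower and 0 higher, among them PLAUR, the urokinase receptor gene (−0.92), and S100A10, above. Of these, the calls of ADAMTSL4, PLAUR and S100A10 were lost in at least 1 of the 8 fits that left out 1 library.

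Transport and glycan genes were lower in small numbers. The glucose transporters SLC2A1 (−1.15, SE 0.15) and SLC2A3 (−1.18, SE 0.16) and the lactate exporter SLC16A3 (−0.74, SE 0.14) were lower of 32 amino-acid and glucose transporters, none higher. SLC2A1 had 349.7, 240.4, 266 and 289 CPM in NEG and 144, 142, 117 and 116 after dTAG. Among 182 other solute carriers 5 were lower, among them SLC16A5 (−2.17), and SLC16A6 was higher (1.06). Of 50 ion channels LRRC8A, the potassium channel KCNK1 (−1.07) and the calcium-activated chloride channel ANO1 (−1.46, SE 0.17) were lower, and the aquaglyceroporin AQP3 (−1.24) and the transporter SLCO3A1 (−1.66) were lower outside the lists. Of 46 glycosyltransferases 5 were lower: GCNT3 (−2.01) and B3GNT3 (−1.65), which extend mucin glycans, and the sialyltransferases ST3GAL3 (−1.58), ST3GAL4 (−0.67) and ST6GALNAC2 (−1.03). In sphingolipid synthesis, FA2H, fatty acid 2-hydroxylase, fell from 13.4, 11.6, 7.65 and 7.62 CPM to 2.54, 3.06, 0.964 and 0.525 (−2.71, SE 0.35, edgeR adjusted p 0.002), and A4GALT, which makes the globoside Gb3, from 180, 125, 144 and 117 CPM to 48.2, 45.8, 42.2 and 32.1 (−1.76, SE 0.17, edgeR adjusted p 0.00044), 2 of 34 tested. A4GALT overlaps CYB5R3. Tetraspanins CD9 (−1.25) and TSPAN14 (−1.03) were lower of 20. Of these genes, the calls of SLC16A3, SLC16A6, KCNK1, GCNT3, ST3GAL3, ST3GAL4 and ST6GALNAC2 were lost in at least 1 of the 8 fits that left out 1 library. On counts summed per experiment SLC16A6, ST3GAL4 and ST6GALNAC2 were not called.

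CDKN1A, the p21 inhibitor, was 1 of 22 G1 genes (−0.86, SE 0.14), BCL2L1, which codes for BCL-XL, 1 of 18 BCL2 family genes (−1.10, SE 0.17), and CDKN1A, PHLDA3 and PLK3 (−0.69) were lower of 23 p53 targets. ALDH3B1 was 1 of 20 aldo-keto and aldehyde enzymes (−2.04) and COX6B2 1 of 81 respiratory subunits (−2.04). Of 414 ZNF genes 2 were lower (0.483%, against 2.21% of all genes tested), ZNF133 (−0.62) and ZNF185 (−1.31). edgeR called 0 of 51 mitotic genes, 0 of 75 ribosomal protein genes, 0 of 43 proteasome genes, 0 of 43 Pol II and Mediator genes, 0 of 28 histone genes, 0 of 20 heat shock genes, 0 of 16 collagens, 0 of 47 RAB genes, 0 of 5 C/EBP genes, 0 of 29 snoRNA host genes and nuclear lncRNAs, 0 of 31 RUVBL1/2 partner genes and 0 of 19 TNF superfamily genes. Medians in these lists ran from −0.10 (collagens) to 0.14 (TNF superfamily). Over all genes tested 2.64% were called, so 0 calls in lists of these sizes do not show that a class was spared. Cholesterol synthesis (0 of 25 called, median 0.30, 6 below 0), the unfolded protein and integrated stress response (0 of 31, median 0.20, 7 below 0) and glycolysis and hypoxia (0 of 31, median 0.13) had medians above that of all genes; HMGCS1 had 0.62 (SE 0.15) and HSPA5 0.42 (SE 0.13). In total 120 of the 296 lower genes and 20 of the 58 higher genes belonged to a fixed list or marker list. Of the called genes, the calls of CDKN1A, PHLDA3, PLK3, COX6B2, ZNF133 and ZNF185 were lost in at least 1 of the 8 fits that left out 1 library. The fit on sums per experiment did not call PHLDA3, PLK3, ZNF133 and ZNF185.

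**Figure D3:**
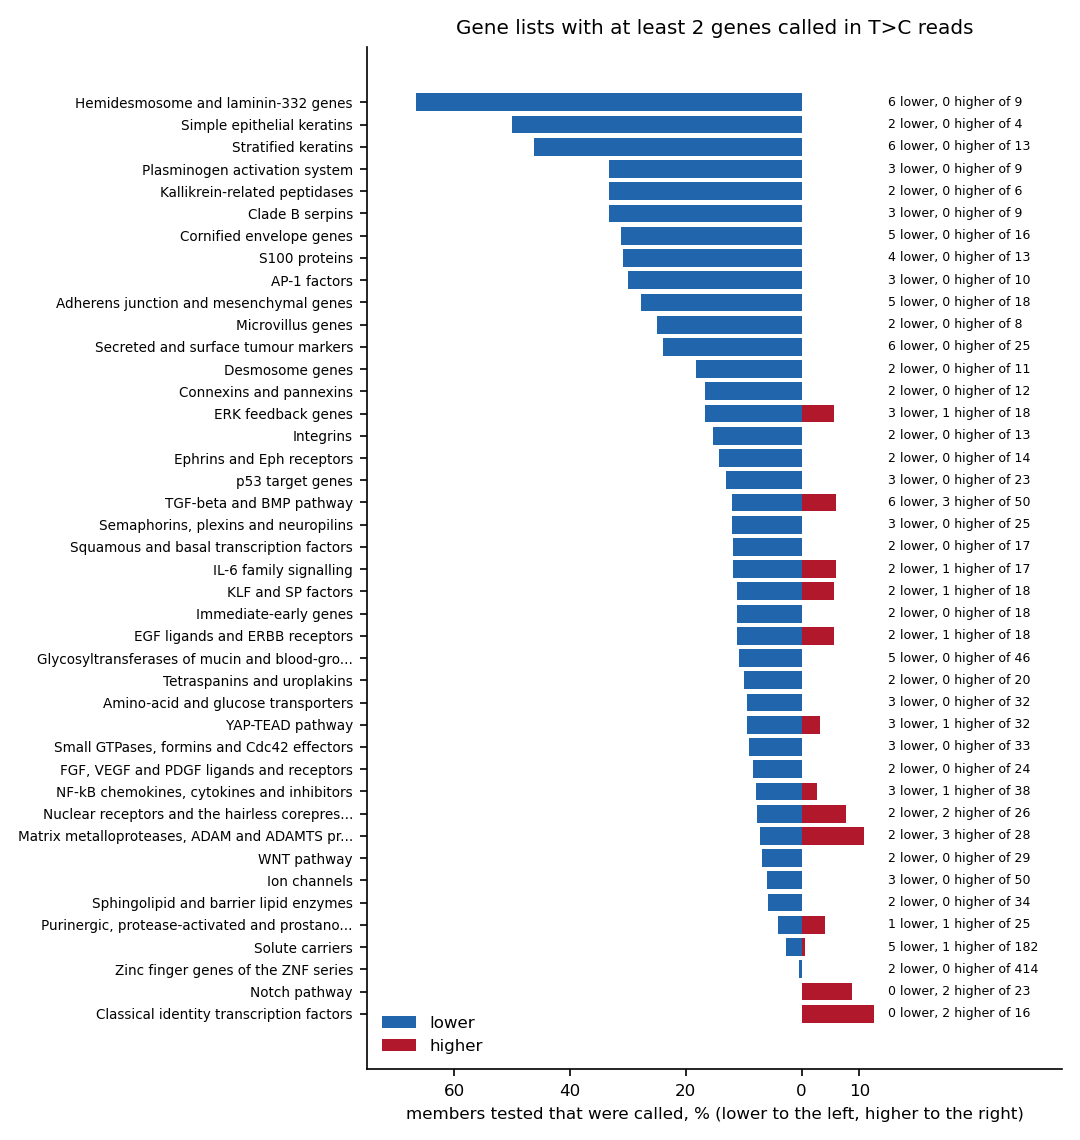
Share of the tested members of each fixed gene list that was called in T>C reads (percent), lower to the left in blue and higher to the right in red, for the 42 lists with at least 2 calls. Hemidesmosome genes lead with 6 of 9 lower, and Notch and classical identity factors are the lists with higher calls alone. Over all genes 2.21% were lower and 0.432% higher. The lists were chosen with earlier results of these data known, so the order of shares is no test of enrichment.

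In all reads the changes were smaller. All reads hold the T>C reads, RNA made before labelling and new RNA that was not converted. Treatment lasted 4 h and labelling only the last 2 h, so RNA made under treatment before labelling is among them. Of 15727 genes tested, 64 were lower (0.407%) and 20 higher (0.127%), and 76 of the 84 were also called in T>C reads with the same sign. The other 8 were CITED4 (−0.75), GLI2 (−1.26), LINC02323 (−1.19), RELT (−0.88), RPTN (−1.28), DIO2 (1.06), GMDS-DT (1.11) and SOX2, a stem cell and squamous factor (1.199). Among the 296 genes lower in T>C reads, 295 were below 0 in all reads with a median of −0.55, and 59 (19.9%) were called; among the 58 higher, 56 were above 0 with a median of 0.53, and 17 (29.3%) were called. Both readouts come from the same libraries and share reads, so these counts describe 1 experiment. Calls in both readouts had a high T>C share, the percentage of the gene's reads with conversions in NEG, which is higher for RNA that turns over faster. Its median was 39.6% for lower genes called in both and 15.8% for those called in T>C reads alone, against 19.0% over all genes. With a share of at least 30%, 91 lower genes had medians of −1.22 in T>C reads and −0.83 in all reads, and 38 were called in both. With a share under 10%, 57 lower genes had medians of −1.22 and −0.32, and 0 were called in both. For higher genes the medians were 1.06 and 0.86 at 30% or more (23 genes, 15 called in both) and 0.98 and 0.15 under 10% (10 genes, 0 called in both).

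Single genes show the same gap. ELF3, with a T>C share of 44.9%, had 27.6, 36.4, 38.2 and 44.6 CPM of all reads in NEG libraries 1.1, 1.2, 2.1 and 2.2 and 11.9, 13.1, 9.39 and 11.7 after dTAG (−1.67, edgeR adjusted p 0.00359). KLK10, with a share of 6.09%, had 173, 164, 289 and 296 CPM of all reads in NEG and 137, 118, 266 and 232 after dTAG (−0.31, edgeR adjusted p 0.421), beside −2.16 in T>C reads. MMP1, with 4.89%, had 0.27 in all reads beside 1.72 in T>C reads. Other genes called in both were C1orf116 (−1.56 in all reads), CLCF1 (−1.79), NUAK2, a kinase of actomyosin control (−1.52), TGFBR3 (−1.31), F3 (−1.11), JUNB (−1.08), AJUBA (−1.22), ARTN, which codes for artemin (−1.18), TNS4 (tensin 4, −1.06), FOXA2 (1.24), SOX9 (1.33), HEY1 (1.27), NR2F1 (1.19), PTGS2 (1.02), SPRY1 (1.18) and PDE4B (1.12). Of the keratins, KRT16 was called in all reads (−0.91), and KRT6A (−0.41), KRT14 (−0.44) and KRT13 (−0.19) were not. USH1G had 5.21, 4.24, 19.5 and 20.5 CPM of T>C reads in NEG and 0.712, 0.447, 0.820 and 1.38 after dTAG, and fell by 2.78 on the log2 scale in all reads. Its neighbour on chromosome 17, the proton channel gene OTOP3, changed by −5.08 in T>C reads and −0.59 in all reads. FOXN1, a forkhead factor of thymus and skin, had 1.13, 1.11, 6.65 and 9.45 CPM of T>C reads in NEG and was at 0 in all 4 dTAG libraries.

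**Figure D4:**
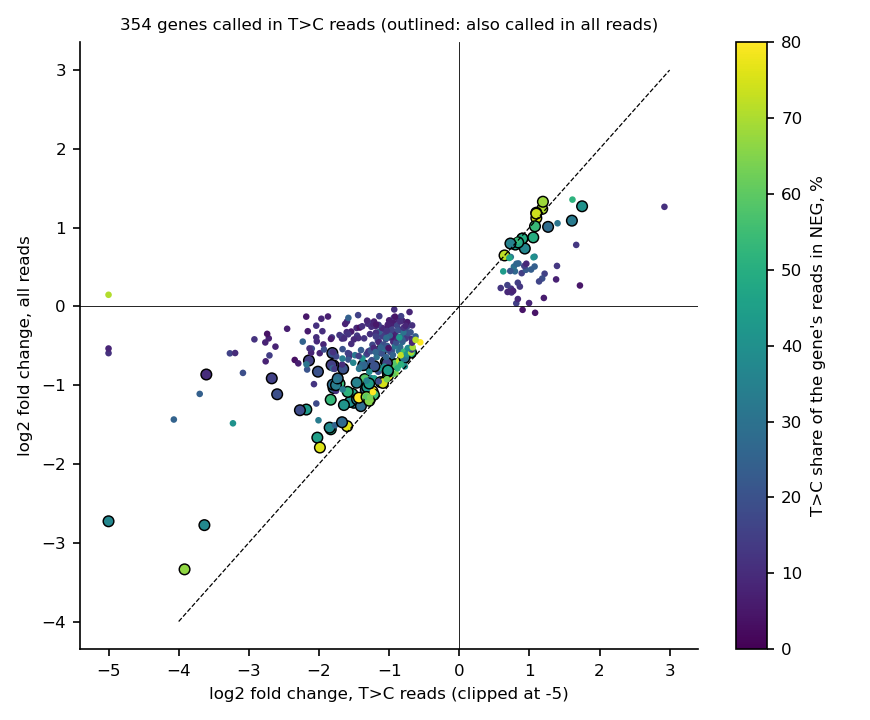
Log2 fold change in all reads against that in T>C reads for the genes called in T>C reads, coloured by the T>C share of each gene in NEG (percent), with outlines where the gene was also called in all reads and a dashed line at equal change. Genes of a high share lie near the line, and genes of a low share lie near 0 on the vertical axis.

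In reads without T>C, which share no read with the T>C table, 15 of 15185 genes were called (0.0988%). These reads hold RNA made before labelling, part of it under treatment, and new RNA that was not converted. The 11 lower included AJUBA, ARTN, AVPI1, C1orf116, ELF3, MAFF, PROSER2, RELT, TNS4 and USH1G, and the 4 higher FOXA2, KLF5, NR2F1 and SGIP1. SGIP1 had too few T>C reads to be tested. Among the 296 lower genes 291 were below 0 in these reads, with a median of −0.40, and among the 58 higher 53 were above 0, with a median of 0.35. Counts summed per experiment gave 4 calls in all reads and 0 in reads without T>C, and the fits without the block 3 and 0.

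Both subtype programs held genes that fell. From the signature lists of the study, Moffitt Basal-like had 33 lower and 3 higher of 150 tested (median −0.41) and Moffitt Classical 8 lower and 1 higher of 109 (median −0.33). Bailey Squamous had 45 lower and 13 higher of 384 (median −0.07) and Bailey Progenitor 11 and 1 of 171 (median −0.31). Chan-Seng-Yue Basal-A had 31 lower and 2 higher of 322 (median −0.10) and Classical-A 7 and 0 of 142 (median −0.27). The background was 2.21% lower and 0.432% higher, with a median of 0.006. These 3 pairs of lists come from tumours, not from these libraries.

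AsPC-1, a pancreatic line used as a classical model with the same degron, gave 350 lower (2.99%) and 97 higher genes (0.829%) of 11696 in its own fit. Of the 296 genes lower in T3M-4, 229 were tested there, and 114 were lower in both, which is 38.5% of the T3M-4 and 32.6% of the AsPC-1 calls. Such shares count untested genes as not shared: 67 of the 296 were not tested in AsPC-1, and 331 of the 350 were tested in T3M-4. The 229 had a median of −0.64 in AsPC-1 and 0 were called in the opposite direction. Of the 58 higher genes 44 were tested and 6 were higher in both (10.3% and 6.19%), with a median of 0.29. Stratified genes such as KRT6A, KRT14, KRT13, KRT17, MUC16, PPL and IVL, and TP63, MMP1, FOXA2 and HEY1, had too few T>C reads in AsPC-1 to be tested. C1orf116 (−2.17), ELF3 (−1.38), LAMA3 (−2.21), SERPINB5 (−1.90), JUNB (−1.32), SLC2A1 (−1.54) and KLF5 (0.61) were called in AsPC-1 with the same sign.

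The effect differed between the lines for 29 of 14088 genes by an interaction term (0.206%), 18 lower and 11 higher in T3M-4 relative to AsPC-1. The count was 6 without the replicate block and 92 with DESeq2. Of the 273 genes called in T3M-4 and tested in AsPC-1, 20 were among them. TGFBR3 changed by −2.18 in T3M-4 and −0.02 in AsPC-1 (difference −2.14, SE 0.25, edgeR adjusted p 0.000103). KLK11 changed by −2.72 and −0.32 (difference −2.37), LRRC8A by −1.79 and −0.35 (−1.42), CLCF1 by −1.99 and −0.08 (−1.89), ALDH3B1 by −2.04 and −0.09 (−1.92), KLF3 by −1.59 and −0.32 (−1.25) and F3 by −1.52 and −0.55 (−0.95). IGFBP3, a carrier of insulin-like growth factors, changed by −1.16 and 0.11 (−1.25). ANTXR2 rose in T3M-4 by 1.39 and had −0.05 in AsPC-1 (1.48), and ID1 fell by less in T3M-4 (−0.56) than in AsPC-1 (−1.60, difference 1.07).

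**Figure D5:**
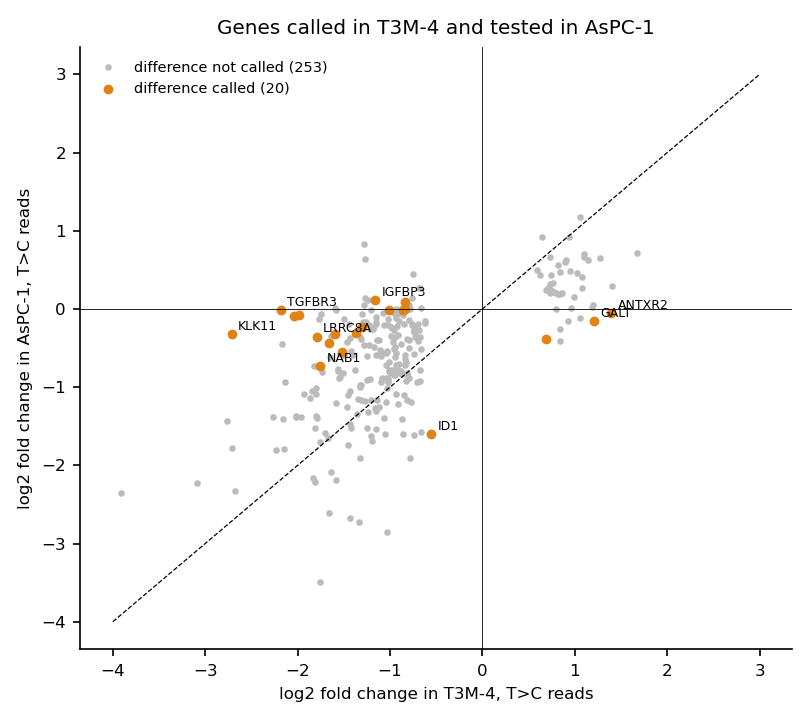
Log2 fold change of T>C reads after dTAG in AsPC-1 against that in T3M-4, for the 273 genes called in T3M-4 and tested in AsPC-1, in orange where the difference between the lines was called (20) and with a dashed line at equal change. Most points have the same sign in both lines, and most orange genes lie near 0 in AsPC-1.

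CB-6644, an inhibitor of the RUVBL1/2 ATPases, was compared with DMSO in 8 other T3M-4 libraries, and edgeR called 0 of 13444 genes (1230 at an unadjusted p under 0.05, 40 called by DESeq2). Of the 296 genes lower after dTAG, 195 (65.9%) were below 0 after CB-6644, against 49.99% of all genes tested. The 296 had a median of −0.11, and 39 of the 195 had an unadjusted edgeR p under 0.05. The 1230 genes above were counted with either sign, so they are no matching background for the 39. Of the 58 higher genes 19 (32.8%) were above 0, against 50.01% of all genes tested, with a median of −0.15. An unadjusted edgeR p under 0.05 was found for 2 of the 19. The median over all genes tested was 7.97e-05.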

How the data were processed

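RNA of T3M-4 cells labelled with 4sU for 2 h was sequenced from the 3′ end (QuantSeq, stranded). The authors mapped and counted the reads with slamdunk over GENCODE 3′UTR exons on hg38 and deposited summed counts per gene of T>C reads and of all reads. These counts are raw, so a read in a repeated exon can count more than once. Reads without T>C are the difference of both tables. The deposited tables also held 18 empty columns without a name, which were not used.

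Counts were tested in edgeR 4.0.16 (R 4.3.3) with the quasi-likelihood F test, filterByExpr over treatment, TMM scaling and the model experiment plus treatment, with Benjamini-Hochberg adjustment over all genes tested and a threshold of 0.05. SE is the log2 fold change divided by the root of F. CPM are counts per 1000000 reads after TMM scaling. The method was tested on simulated data with known changes. The block rests on the batch in the labels, which is the first replicate number. The deviations of same-numbered dTAG and NEG libraries from their group means correlated by 0.29 to 0.56 (0.345, 0.555, 0.292 and 0.367). Those of differently numbered dTAG and NEG libraries of the same experiment correlated by 0.290 to 0.424. Within an experiment, the dTAG libraries correlated by 0.228 and 0.062 and the NEG libraries by 0.351 and −0.001 in experiments 1 and 2. Deviations from a group's own mean cancel over its libraries, which lowers the values of same-treatment pairs. They cannot be compared with those of dTAG and NEG pairs. AsPC-1 and CB-6644 were fitted the same way, and the difference between the lines as an interaction.

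At these depths (13562612 to 27982537 T>C reads per library), counting error is small beside the spread between libraries for all but the rarest genes, and p-values measure that spread. Genes were named as KLF5 and SERPINB5, the 20 lower and 10 higher genes of smallest p, called members of 67 gene lists, genes called on other reads, the genes of smallest p of each interaction, and further genes called on sums per experiment. The members and lists were chosen with earlier results of these data known. The signature lists came from a supplementary table of the study. Alternatives were the block, DESeq2 1.42.0, its size factors, the filter, scaling by all reads, sums per experiment, each experiment alone, all 20 T3M-4 libraries and leaving out each library. Some genes that the rule names are not reported here.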

Additional observations from a re-analysis of the deposited data

Results flagged for a closer look

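In 15 gene groups and 1 share, 1 library lay far from the other 3 of its group, of 466 groups looked at over the named genes; about 1 in 20 groups would be found so by chance. Of the dTAG libraries, ELF3 had 25.4 CPM of T>C reads in 2.1 (33.7 to 34.8 in the others) and LAMA3 22.3 in 1.1 (35.8 to 36.6). ITGB4 had 232 in 1.2 (338 to 348), JAG1 69.3 in 2.2 (50.2 to 52.6) and WNT7A 3.87 in 1.1 (6.94 to 7.30). FZD10 had 2.67 in 2.2 (3.64 to 3.76), KLF2 7.49 in 2.2 (3.58 to 3.92) and S100A10 110.4 in 2.2 (74.8 to 79.1). SLC16A6 had 11.2 in 2.1 (14.7 to 14.9), SLC2A3 45.6 in 1.1 (33.1 to 34.4) and WWC1 145 in 2.1 (107 to 111). C6orf132 had 93.5 in 2.1 (72.4 to 74.0) and CEMIP2 33.1 in 1.1 (13.5 to 15.9). Of the NEG libraries, ADAMTSL4 had 1.87 in 2.2 (6.64 to 7.51) and BCL2L1 554 in 1.1 (437 to 457). The labelled read share was 14.3% in dTAG 1.2, the highest of the 4.

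The dTAG effect differed between T3M-4 and AsPC-1 by an interaction term in edgeR for 19 named genes. Over all genes the interaction gave 29 calls, 6 without the replicate block and 92 with DESeq2. The log2 effect in T3M-4 minus that in AsPC-1 was −2.14 for TGFBR3, −2.37 for KLK11, −1.92 for ALDH3B1, −1.89 for CLCF1, −1.42 for LRRC8A and −1.25 for KLF3. It was −1.25 for IGFBP3, −1.21 for SLCO3A1, −1.04 for SERPINB1, −1.04 for BAIAP2, −1.01 for NAB1 and −0.98 for PTTG1IP. Smaller differences were −0.95 for F3, −0.90 for DAAM1, −0.82 for ATG12 and −0.81 for AKAP13. It was above 0 for ANTXR2 (1.48), GALT (1.38) and ID1 (1.07).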

How the results depend on the processing

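The alternatives were run for 233 named genes, among them some called in other reads and not in T>C reads. Those called in T>C reads kept their sign in each alternative. Of those not called in T>C reads, 6 were called with DESeq2 and 7 without the filter on low counts. Genes named without any call were not run. In T>C reads 58 genes were called higher and 296 lower; 112 were without the replicate block, 691 with DESeq2 (188 higher, 503 lower), 811 without the filter on low counts (274 and 537), 38 in experiment 1 alone, 123 in experiment 2 alone and 176 with all 20 T3M-4 libraries in the fit with the replicate block. Leaving out 1 library gave 186 to 328 calls: 232 and 235 without NEG 1.1 and 1.2, 217 and 235 without NEG 2.1 and 2.2 and 186 without dTAG 2.1 moved by more than 1.5 times. The size factors of DESeq2 (348), sums per experiment (292), the full replicate number as the block (298) and scaling by all reads (336) stayed within 1.5 times. Scaling by all reads moved the lower share of the calls from 83.6% to 71.1%. In all reads, 84 calls became 3 without the replicate block, 304 with DESeq2, 418 without the filter and 4 on sums per experiment with the replicate block, and 21 to 120 without 1 library (51 without dTAG 1.2, 26 and 29 without NEG 1.1 and 1.2, 21 and 32 without dTAG 2.1 and 2.2, 27 without either NEG 2.1 or 2.2). In reads without T>C, 15 calls became 0 without the block, 115 with DESeq2, 229 without the filter, 0 on sums per experiment with the block, and 5 to 11 without 1 library, of which 5 or 6 for each library but dTAG 1.1. The difference between experiments, with 0 calls, had 17 with DESeq2, 121 without the filter, 3 without NEG 2.1 and 1 without NEG 2.2. The difference between lines, with 29 calls, had 6 without the replicate block and 92 with DESeq2, and CB-6644, with 0, had 40 with DESeq2 and 247 without the filter. The difference in labelled read share, 0.302 points, ran from −0.125 without dTAG 1.2 to 0.495. Of 233 named genes, 130 lost the call without the block, 31 on sums per experiment, 26 with the full number as block, 20 scaled by all reads, 90 with all 20 T3M-4 libraries, 4 with the size factors of DESeq2, 196 and 131 in experiments 1 and 2 alone, and 21 (without dTAG 1.1) to 75 (without dTAG 2.1) with 1 library left out. Beyond fewer samples and, without the filter, more genes tested, the cause of these changes was not tested.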

Other observations

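Further genes lower in T>C reads, grouped after their values were seen, included kinase and signalling genes: PTK6 of epithelial cells (−1.05), NUAK2 (−1.60), RASSF5 (−1.66), the adaptor MYD88 (−1.21) and the receptor-like GPRC5A (−1.11). Enzyme genes included CKB, a creatine kinase (−1.03), the histone demethylase KDM1A (−0.92) and RIMKLB (−1.08). Others were the stress gene GADD45A (−0.79), the adhesion gene AJAP1 (−1.49), the spindle gene MISP (−2.27) and the lncRNA LINC01133 (−1.44). Among higher genes outside the lists were CEMIP2, a hyaluronidase (1.402), GALT of galactose metabolism (1.21), UBASH3B (1.02) and the protocadherin gene PCDH7 (0.84).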
